A study of Mus musculus with 12 samples.

Results

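Matrix metalloproteinases (MMPs) and the tissue inhibitors of metalloproteinases (TIMPs) were followed in mouse embryonic fibroblasts (MEFs) by 22 probe sets for 10 genes, among 45037 probe sets tested on each Affymetrix array. The members were all probe sets that the platform annotation assigns to Mmp2, Mmp3, Mmp9, Mmp10, Mmp11, Mmp13 and Mmp14 (11 probe sets) and to Timp1, Timp2 and Timp3 (11 probe sets). The 12 arrays formed 6 groups of 2, which the design text calls biological duplicates, all from C57BL/6 MEFs. S5 MEFs were Stat5-null cells that had received STAT5A through a retroviral vector, KO MEFs were Stat5-null cells without it, and WT MEFs were wild type. Each was given growth hormone for 120 minutes (S5 + GH, KO + GH, WT + GH) or left unstimulated (S5, KO, WT). No vehicle control and no KO group with an empty vector is given in the labels, so the vector and the cell preparation cannot be told apart from the genotype. The labels do not say whether the duplicates came from separate embryos or cultures, so p-values measure the spread between these arrays.

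MMPs are zinc-dependent enzymes, secreted or held at the membrane, that cleave collagens, other matrix proteins and many secreted or surface proteins. They are made as inactive proenzymes that plasmin, other MMPs or furin-like convertases activate, and TIMPs bind the active site and block it. Fibroblasts make several of them, and activated macrophages make a partly overlapping set. Growth hormone acts through its receptor and the kinase JAK2, which phosphorylates STAT5A and STAT5B.

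Values are log2 expression values, a scale read from their range since no label states it. Of all tested probe sets, 54.3% had a mean below 4 over the 12 arrays, and a value below 4 is called the low mode here. A group with both arrays there was taken to be at 4, so that a fold against it reads "at least". Of the 22 probe sets, 20 had a mean of 4 or more. A probe set reads amount per RNA sample, so fewer cells of a type and less RNA per cell cannot be told apart.

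Before the MMPs, the targeted genes were checked on every array. The Stat5a probe set 1421469_a_at lay at 2.34 to 2.42 in S5 and S5 + GH, at 2.38 to 2.47 in KO and KO + GH, and at 11.5 to 12.4 in WT and WT + GH MEFs. The Stat5b probe set 1422103_a_at lay at 1.93 to 2.01 in the S5 and KO groups, against 8.98 to 9.39 in the WT groups. A second Stat5a probe set, 1450259_a_at, lay at 9.04 to 9.14 in S5 + GH, 9.86 to 9.90 in S5, and 2.19 to 2.38 in every other group, WT included. Of 12 fibroblast markers, the collagens Col1a1 and Col1a2 had group means of 14.7 to 14.8 in all groups. Untreated S5 against WT called 6 of the 12 lower and 1 higher, where 10.2% and 13.9% of all probe sets were called. Untreated KO against WT called 4 lower and 1 higher, where 7.85% and 9.38% were called. Lum averaged 3.89 in S5, 3.22 in KO and 7.42 in WT, and Dcn 7.95, 10.9 and 10.9. Thy1, a fibroblast surface marker, had means of 2.88 in S5 + GH and 4.31 in S5, against 14.3 and 14.2 in KO + GH and KO and 14.1 and 14.2 in WT + GH and WT.

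WT cultures also carried macrophage transcripts. The mean of 14 macrophage markers was 3.21 to 3.24 in S5 + GH, 3.30 to 3.49 in S5, 4.20 to 4.46 in KO + GH and 4.01 to 4.3 in KO, against 11.02 to 11.06 in WT + GH and 9.35 to 10.8 in WT. In WT + GH 13 of the 14 were at 4 or above, all but Itgam. The defining markers Ptprc, Adgre1 and Tyrobp were in the low mode in all S5 and KO groups, but 3 of the 14 were at 4 or above in S5 and 5 in KO. Cd68, a lysosomal marker, averaged 7.73 in S5 and 7.96 in KO, and Csf1r, the receptor for macrophage colony-stimulating factor, 6.58 in S5 and 7.73 in KO. Lyz2 and Cd53 averaged 6.41 and 5.48 in KO and were in the low mode in S5. The untreated WT arrays differed, at 9.35 on replicate 1 and 10.8 on replicate 2. All 6 neutrophil markers were in the low mode on all arrays, as were 5 of 6 epithelial and 5 of 6 endothelial markers. The remaining ones were Krt18 and Tek. Untreated, the epithelial marker Krt18 averaged 2.55 in S5, 7.89 in KO and 6.45 in WT, and the endothelial marker Tek 9.35, 3.28 and 6.77. The part of macrophage RNA in the WT differences below was not tested.

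The genes Mmp13, Mmp3 and Mmp10 lie in a cluster of MMP genes on chromosome 9, and are set out first because their genotype differences, with the WT hormone differences of Mmp10 and Mmp13, are described below. Their promoters, the 120 bases before each start from RefSeq (GRCm38.p6, + strand), are shown because each holds a match to the AP-1 motif, in capitals. AP-1 is the FOS and JUN dimer, a textbook regulator of collagenase and stromelysin promoters.
Mmp13 chr9:7272394-7272513: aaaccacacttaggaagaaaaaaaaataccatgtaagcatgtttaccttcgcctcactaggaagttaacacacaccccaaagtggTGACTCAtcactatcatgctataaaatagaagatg
Mmp3 chr9:7445702-7445821: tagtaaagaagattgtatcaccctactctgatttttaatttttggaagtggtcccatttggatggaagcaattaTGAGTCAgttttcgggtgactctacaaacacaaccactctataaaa
Mmp10 chr9:7502222-7502341: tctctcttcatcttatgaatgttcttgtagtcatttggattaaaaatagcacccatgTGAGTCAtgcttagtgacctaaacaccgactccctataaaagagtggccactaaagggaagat
The match begins 35 bases before the start in Mmp13, 46 in Mmp3 and 63 in Mmp10. RefSeq promoters were found for 8 of the 10 genes, all but Mmp2 and Mmp9. Over the 250 bases before the start, searched on both strands, TGANTCA was in 3 of the 8 member promoters, these 3, and in 6.75% of 32851 promoters. A STAT site of the letters TTCNNNGAA was in none of the 8 and in 7.02% of all promoters. An NF-kB motif was in none of the 8 and in 0.356% of all. A match is a description of the letters in this window and not evidence of binding.

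Whether growth hormone changes these genes in each genotype is what the hormone comparisons address. A response that differs between genotypes cannot be assigned to STAT5, since genotype and cell preparation cannot be told apart. In WT MEFs 2 of 22 probe sets were past the adjusted p threshold of 0.05, both higher, where 3.06% of all tested probe sets were called (1.79% higher). They read Mmp10 and Mmp13. In KO MEFs none of the 22 was called by limma, with 3 at an unadjusted p under 0.05, and 0.251% of all probe sets were called. In S5 MEFs 4 of 22 were called, all lower and all of TIMPs, where 6.24% of all were called (2.83% lower). The median log2 difference of the 22 was -0.14 in S5, 0.003 in KO and 0.08 in WT, against -0.02, -0.02 and -0.03 over all probe sets.

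**Figure D1:**
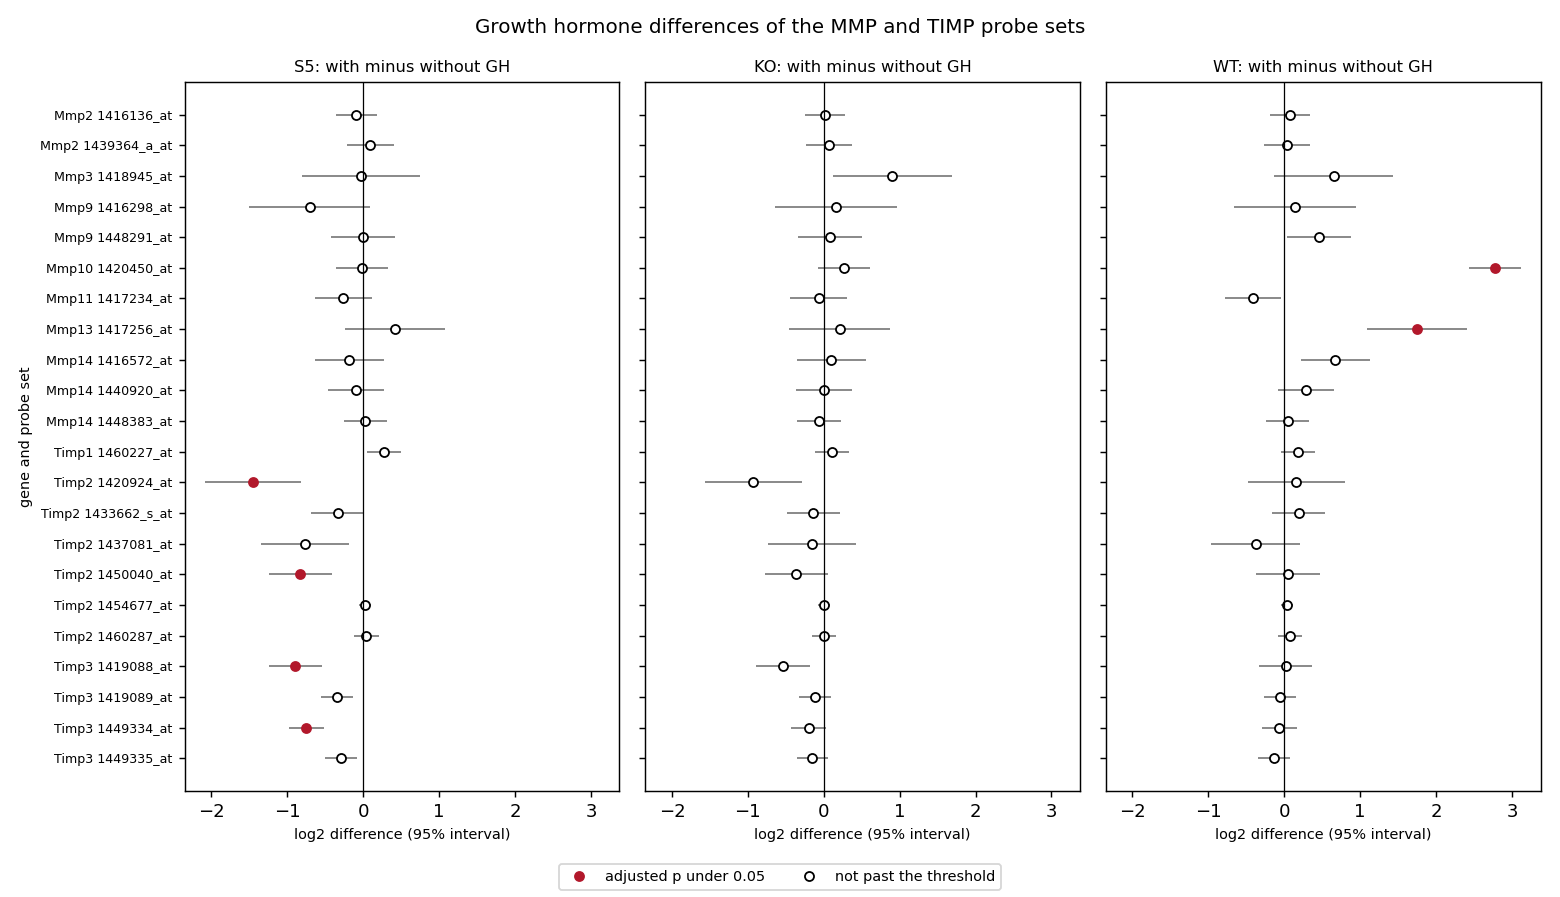
Log2 difference with minus without growth hormone (x axis) for each of the 22 probe sets (y axis) in S5, KO and WT MEFs; lines are 95% intervals of the model and filled points have an adjusted p under 0.05. The filled points are Timp2 and Timp3 probe sets on the lower side in S5, and Mmp10 (2.77) and Mmp13 (1.75) in WT.

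Mmp10, or stromelysin 2, which degrades proteoglycans and activates other proenzymes, was raised by growth hormone in WT MEFs. Its arrays read 6.96 and 6.49 in WT + GH, against 4.08 and 3.82 in WT. They read 2.54 and 2.55 in KO + GH against 2.31 and 2.25 in KO, and 2.17 and 2.10 in S5 + GH against 2.13 and 2.18 in S5. The WT + GH arrays thus stood above all others, untreated WT lay at the edge of the low mode, and the KO and S5 groups were within it. In WT the log2 difference was 2.77 (SE 0.15, adjusted p = 0.000146), and no fold is given because 1 of the untreated arrays was below 4. The WT response exceeded the KO response by 2.51 (SE 0.21, adjusted p = 0.00311), in a test that called 0.626% of all probe sets. The S5 response minus the WT response was -2.79 (SE 0.21, adjusted p = 0.000998), where 2.12% were called. Fitted with the WT arrays alone, the adjusted p of the WT response was 0.0685.

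Mmp13, collagenase 3, the main interstitial collagenase of the mouse, was the other WT call. Its arrays read 10.15 and 9.91 in WT + GH, against 8.27 and 8.28 in WT. In WT the difference was 1.75 (SE 0.28, adjusted p = 0.022), 3.37-fold, and the groups did not overlap, as was so for 57.1% of all probe sets. The adjusted p was 0.0582 with the WT arrays alone, and between 0.0794 and 0.0909 when any single WT or WT + GH array was left out. Arrays read 6.45 and 6.55 in KO + GH against 5.90 and 6.67 in KO, a difference of 0.21 (95% interval -0.45 to 0.87) with overlapping groups. S5 + GH read 3.71 and 3.15 against 3.19 and 2.83 in S5, all in the low mode. The responses did not differ past the threshold, by 1.54 for WT minus KO (adjusted p = 0.272) and -1.34 for S5 minus WT (adjusted p = 0.197).

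Mmp3, or stromelysin 1, a matrix-degrading enzyme that also activates other MMPs, read 11.07 and 11.33 in WT + GH against 10.59 and 10.50 in WT. The difference of 0.65 was not called (SE 0.33, adjusted p = 0.416). In KO + GH the arrays read 5.495 and 6.70, against 5.14 and 5.25 in KO, a difference of 0.90 (SE 0.33, adjusted p = 0.521). The wide gap between the KO + GH duplicates decided these values. Without KO + GH replicate 1 the KO difference was 1.51 (adjusted p = 0.00667) and without replicate 2 it was 0.30, not called. With either KO + GH array left out the WT difference, still 0.65, had an adjusted p of 0.0272. S5 + GH read 8.99 and 9.13 against 9.06 and 9.12 in S5, a difference of -0.03 (95% interval -0.81 to 0.75). S5 minus KO in response was -0.93 (adjusted p = 0.747), where 1.05% of all probe sets were called, and it was -1.54 (adjusted p = 0.0118) without KO + GH replicate 1 and -0.33, not called, without replicate 2.

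Macrophage markers moved beside the WT hormone differences. Of the 14, 2 were called higher in WT + GH, Cybb by 3.51 (adjusted p = 0.0368) and Cd14 by 2.69 (adjusted p = 0.0462), and their median difference was 0.56. Cybb, a subunit of the phagocyte oxidase, read 2.79 on WT replicate 1 and 5.21 on replicate 2, and Cd14, a lipopolysaccharide co-receptor, 7.54 and 9.12. Mmp13 read 8.27 on replicate 1 and 8.28 on replicate 2, and Mmp10 read 4.08 on replicate 1 and 3.82 on replicate 2. Mmp12, macrophage elastase, encoded between Mmp13 and Mmp3 in the cluster, read 8.997 and 9.44 in WT + GH, against 7.14 and 9.26 in WT. Its difference of 1.02 was not called (adjusted p = 0.458), and it lay between 2.34 and 2.51 on every KO and S5 array. Of the cluster's other genes, Mmp1b, Mmp1a, Mmp8, Mmp20 and Mmp7 had group means of 1.90 to 2.35 throughout, and no probe set was assigned to Mmp27.

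**Figure D2:**
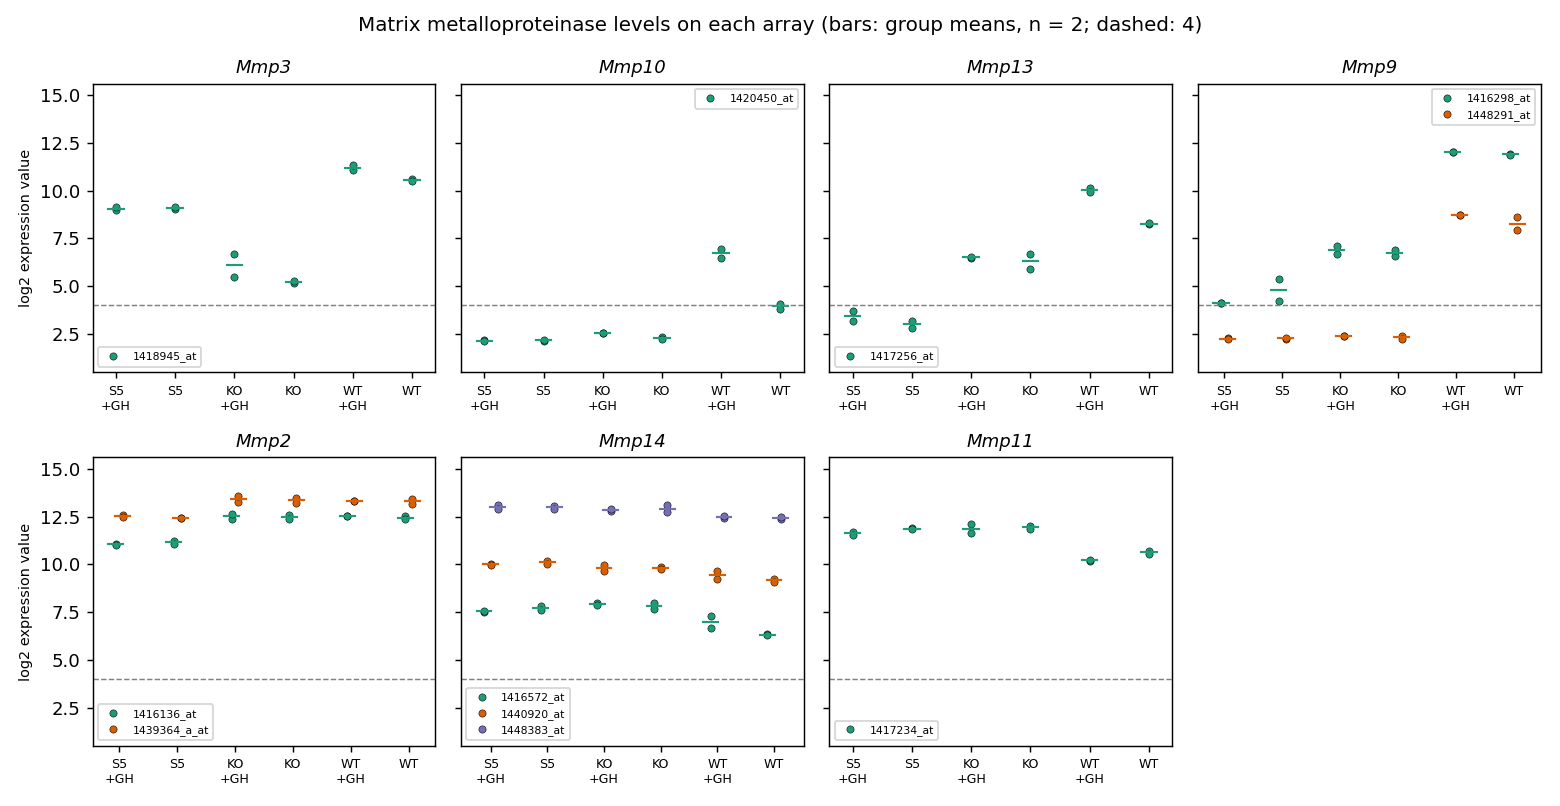
Log2 expression value (y axis) of each MMP probe set on the 12 arrays; points are arrays, short bars group means (n = 2), the dashed line the low mode bound of 4, and groups on the x axis run S5 + GH, S5, KO + GH, KO, WT + GH, WT. Mmp10 stands above 6 in WT + GH only, Mmp3 at about 9 in S5 between KO and WT, and Mmp13 and the Mmp9 probe set 1416298_at step down over WT, KO and S5.

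More of the probe sets were called between untreated genotypes than with hormone in any genotype. KO against WT called 15 of 22 probe sets (10 higher, 5 lower) where 17.2% of all were called, 9.38% higher and 7.85% lower. S5 against KO called 9 (1 higher, 8 lower) where 18.8% were called, 10.5% higher and 8.37% lower. S5 against WT called 18 (8 higher, 10 lower) where 24% were called, 13.9% higher and 10.2% lower. With hormone on both sides the members called were 13, 12 and 16 in the same order of comparisons, where 19.4%, 21.8% and 27.6% of all were called. The 5 lower in KO than in WT were those of Mmp3, Mmp9, Mmp10 and Mmp13. The higher ones were Mmp11, the 3 Mmp14 probe sets and the 6 Timp2 probe sets.

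The order of Mmp3 was WT, S5, KO, with no overlap between the genotypes. Over all probe sets, untreated arrays did not overlap for 56.1% between S5 and KO, 76.4% between S5 and WT, and 46.4% between KO and WT. Untreated S5 arrays at 9.06 and 9.12 stood 3.89 above KO at 5.14 and 5.25 (SE 0.33, adjusted p = 0.000191), 14.9-fold. KO stood 5.35 below WT at 10.59 and 10.50 (SE 0.33, adjusted p = 7.2e-05), 40.8-fold lower. S5 remained 2.75-fold below WT, a difference of -1.46 (adjusted p = 0.0168, and 0.0671 to 0.0802 without any 1 of the 4 arrays). With hormone on both sides S5 was 7.79-fold above KO and KO 34.3-fold below WT. Mmp3 was the only member probe set called higher in S5 than in KO, both without and with hormone. Over the same arrays the macrophage marker mean was 3.21 to 3.49 in S5 and 4.01 to 4.46 in KO. Of the 14 markers, 11 were in the low mode in untreated S5 and 8 in untreated KO. The part of macrophage RNA in the Mmp3 differences was not tested.

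Mmp13 followed another order, WT, KO, S5, and Mmp10 was higher in WT than in KO and S5. Mmp13 in untreated S5, at 3.19 and 2.83, was at least 4.89-fold below KO (adjusted p = 0.000191), which read 5.90 and 6.67. KO in turn was 1.99 below WT, 3.96-fold (SE 0.28, adjusted p = 0.00295; 0.0513 with only those 4 arrays fitted). S5 was at least 19.4-fold below WT (adjusted p = 1.75e-05), and at least 65.2-fold with hormone. Mmp10 gave no fold without hormone, since WT averaged 3.95. KO and S5 were both in the low mode (S5 minus KO -0.13, adjusted p = 0.644). KO minus WT was -1.67 (adjusted p = 0.000323) and S5 minus WT -1.80 (adjusted p = 0.000137). With hormone both KO and S5 were at least 6.61-fold below WT.

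The gelatinases, Mmp2 and Mmp9, cleave denatured collagen and basement membrane collagen. Mmp9, which macrophages and neutrophils secrete in quantity, read 4.11 and 4.12 in S5 + GH, 4.25 and 5.39 in S5, 7.12 and 6.68 in KO + GH and 6.57 and 6.91 in KO on the probe set 1416298_at. In WT + GH it read 12.04 on both arrays, and in WT 11.92 and 11.87. The genotypes did not overlap, and no hormone difference was called in any of them. In S5 that difference was -0.71 (adjusted p = 0.366), and it was -1.28 (adjusted p = 0.0277) without S5 replicate 1 and -0.13, not called, without replicate 2. Untreated KO was 35.6-fold below WT (difference -5.15, SE 0.34, adjusted p = 9.33e-05) and S5 was 135-fold below WT (-7.08, adjusted p = 1.1e-05). S5 was also 3.80-fold below KO (-1.92, adjusted p = 0.00677; 0.105 with only those 4 arrays fitted).

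The second Mmp9 probe set, 1448291_at, read 8.73 and 8.74 in WT + GH and 8.60 and 7.95 in WT. It lay between 2.22 and 2.41 on all KO and S5 arrays, so KO and S5 were each at least 19.4-fold below WT without hormone. Its WT hormone difference was 0.46 (adjusted p = 0.293), with 0.78 (adjusted p = 0.00346) without WT replicate 1 and 0.13, not called, without replicate 2. Across the 12 arrays Mmp9 and the macrophage markers were high in the same 4 WT arrays. In untreated WT, Mmp9 on 1416298_at read 11.92 on replicate 1 and 11.87 on replicate 2. The marker mean on these arrays was 9.35 and 10.8. The part of macrophage RNA in the Mmp9 values was not tested.

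**Figure D3:**
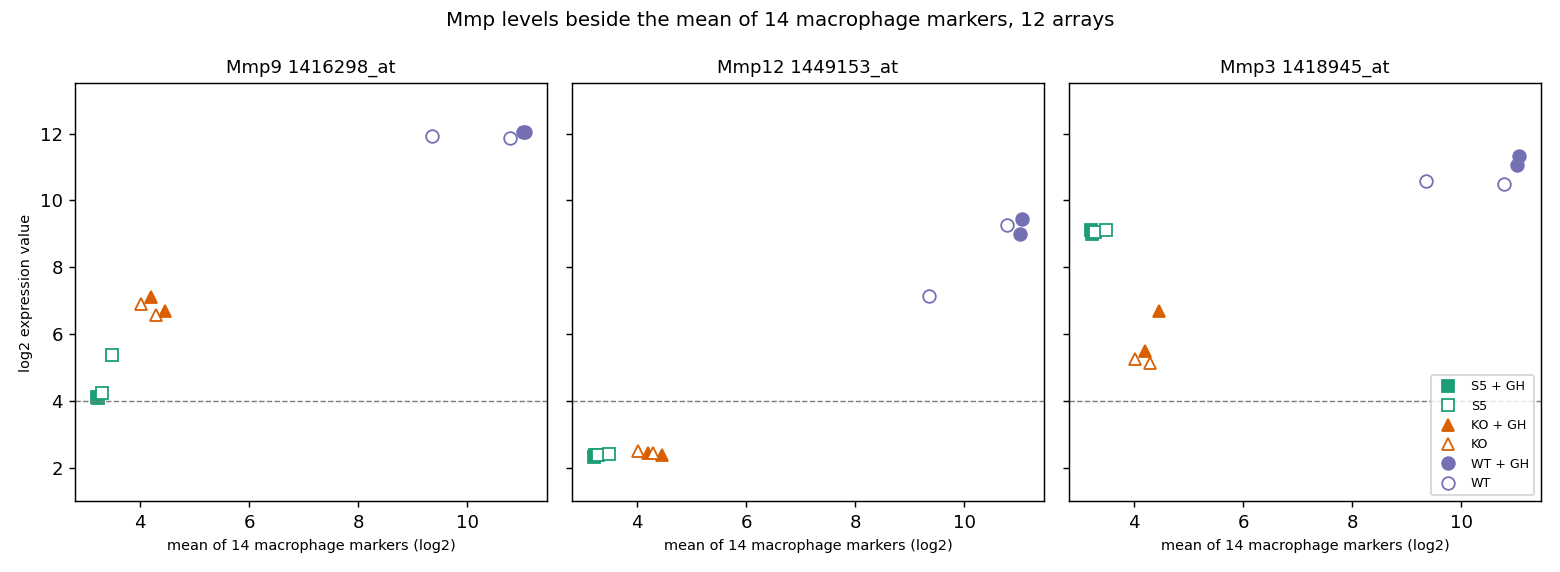
Log2 values (y axis) of Mmp9, Mmp12 and Mmp3 against the mean of 14 macrophage markers (x axis, log2) on the 12 arrays; filled symbols have growth hormone. The WT arrays lie at the right with marker means of 9.35 to 11.1, Mmp12 is at 2.34 to 2.51 elsewhere, and Mmp3 at about 9 in S5 stands at the lowest marker means.

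Mmp2, a gelatinase made constitutively by fibroblasts, was lower in S5 than in KO and WT. On 1416136_at it read 11.09 and 11.03 in S5 + GH, 11.21 and 11.08 in S5, 12.36 and 12.66 in KO + GH, 12.59 and 12.38 in KO, 12.55 and 12.51 in WT + GH, and 12.52 and 12.38 in WT. All 4 S5 arrays lay below all others. Untreated S5 was 2.53-fold below KO (-1.34, SE 0.11, adjusted p = 0.000176) and 2.47-fold below WT (adjusted p = 0.000187). KO minus WT was 0.04 (95% interval -0.23 to 0.30). The other probe set, 1439364_a_at, gave S5 minus KO of -0.91 (adjusted p = 0.00242) and correlated with the first over the 12 arrays at r = 0.984.

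Mmp14, the membrane-type enzyme that activates pro-Mmp2 at the cell surface together with Timp2, was higher in KO than in WT on all 3 probe sets. The clearest was 1416572_at, which read 7.95 and 7.68 in KO against 6.33 and 6.31 in WT, 2.82-fold (1.496, SE 0.19, adjusted p = 0.00199). The other two gave 0.63 (1440920_at, adjusted p = 0.0333) and 0.47 (1448383_at, adjusted p = 0.0373). Those calls were narrow, with adjusted p up to 0.169 and 0.165 when an array was left out. With hormone on both sides they were 0.35 and 0.37 (adjusted p = 0.211 and 0.0843), while 1416572_at held at 0.93 (adjusted p = 0.0141). S5 was likewise above WT, by 1.41, 0.94 and 0.54 on the 3 probe sets in the same order (adjusted p = 0.00167, 0.00438 and 0.0162). On 1448383_at the difference was 0.46 to 0.58 with either WT array or S5 replicate 1 left out, and the call was lost. With hormone on both sides 1416572_at was then 0.55 (adjusted p = 0.079), while the other two passed at 0.56 and 0.52. S5 against KO was not called on any of them, with differences of -0.09, 0.31 and 0.07. In WT + GH 1416572_at read 6.68 and 7.30, a hormone difference of 0.67 (adjusted p = 0.144) that was 0.98 (adjusted p = 0.0205) without WT + GH replicate 1 and 0.36 (adjusted p = 0.419) without WT + GH replicate 2.

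Mmp11, stromelysin 3, a furin-activated enzyme typical of stromal fibroblasts, ran opposite to the cluster genes. It read 11.70 and 11.53 in S5 + GH, 11.89 and 11.87 in S5, 11.62 and 12.12 in KO + GH and 12.02 and 11.85 in KO. WT + GH read 10.18 and 10.25, and WT 10.71 and 10.54. All S5 and KO arrays lay above all WT arrays, and S5 and KO overlapped. Untreated KO was 2.48-fold above WT (1.31, SE 0.16, adjusted p = 0.00145) and S5 2.38-fold (1.25, adjusted p = 0.00111). The hormone differences were -0.26 in S5, -0.07 in KO and -0.41 in WT (adjusted p = 0.514, 0.948 and 0.282).

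**Figure D4:**
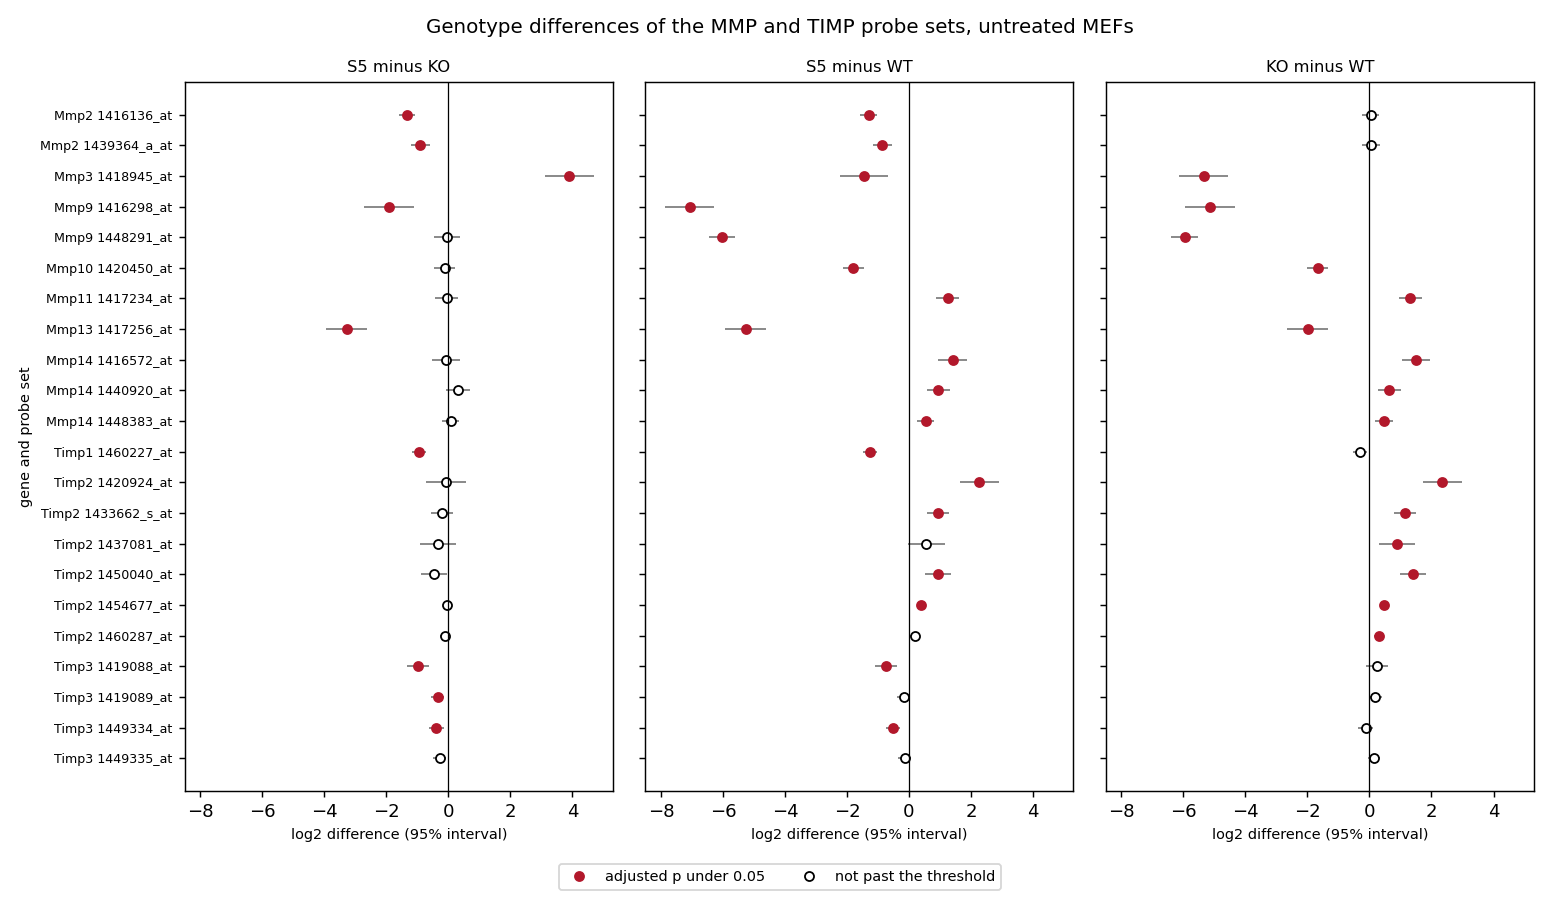
Log2 differences between untreated genotypes (x axis) for the 22 probe sets (y axis), for S5 minus KO, S5 minus WT and KO minus WT; lines are 95% intervals and filled points have an adjusted p under 0.05. Mmp3 is the only filled point to the right in S5 minus KO (3.89), and Timp2 and Mmp14 lie to the right in KO minus WT.

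Among the inhibitors, Timp1, a secreted inhibitor that binds pro-Mmp9, was lowest in S5. It read 13.09 and 12.90 in S5 + GH and 12.71 and 12.75 in S5, against 13.88 and 13.68 in KO + GH, 13.78 and 13.57 in KO, 14.17 on both WT + GH arrays and 13.97 and 14.01 in WT. Untreated S5 was 1.93-fold below KO (-0.95, SE 0.10, adjusted p = 0.000443) and 2.40-fold below WT (-1.26, adjusted p = 9.86e-05). KO minus WT was -0.32 (adjusted p = 0.0668), which passed with hormone on both sides (-0.38, adjusted p = 0.0287). Its hormone differences were 0.27 in S5, 0.11 in KO and 0.18 in WT, none called (adjusted p = 0.188, 0.942 and 0.441).

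Timp2, which inhibits MMPs and also links pro-Mmp2 to Mmp14, was higher in KO than in WT on all 6 probe sets. Probe set 1450040_at read 11.72 and 11.70 in KO against 10.03 and 10.56 in WT, 2.67-fold (1.42, SE 0.18, adjusted p = 0.00175). On 1454677_at KO read 14.34 and 14.26 against 13.86 and 13.83 in WT, 1.37-fold (0.45, SE 0.03, adjusted p = 0.000151). Sizes thus differed between probe sets, from 0.30 on 1460287_at (adjusted p = 0.0244) to 2.35 on 1420924_at (adjusted p = 0.00117, at least 2.30-fold, with WT in the low mode). Probe set 1437081_at was in the low mode on all arrays, and its adjusted p of 0.05, under the threshold before rounding, ranged up to 0.255 in other settings. Untreated S5 was above WT on 4 of the 6 and was not called against KO on any. With hormone on both sides S5 stood above WT on 1454677_at alone (0.38, adjusted p = 0.000157). The other 3 were then 0.66 (1420924_at), 0.42 (1433662_s_at) and 0.06 (1450040_at), against 2.27, 0.95 and 0.94 untreated. S5 + GH was below KO + GH on 1450040_at (-0.95, adjusted p = 0.00776) and on 1437081_at (-0.94, adjusted p = 0.0333).

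Growth hormone lowered a pair of Timp2 probe sets in S5. On 1420924_at the arrays read 3.37 and 3.97 in S5 + GH against 4.93 and 5.32 in S5, a difference of -1.45 (SE 0.27, adjusted p = 0.0244), at least 2.18-fold. On 1450040_at they read 10.22 and 10.58 in S5 + GH against 11.28 and 11.17 in S5, a difference of -0.83 (SE 0.18, adjusted p = 0.0405). That call was lost in 12 of the 18 settings that gave a value, among them quantile normalization and the replicate block, with an adjusted p of up to 0.189. Probe sets 1454677_at and 1460287_at of the same gene differed by 0.02 and 0.04 (95% intervals -0.06 to 0.10 and -0.12 to 0.20). On 1433662_s_at the mean was 12.59 in S5 + GH against 12.93 in S5, not called (adjusted p = 0.313). On 1437081_at, in the low mode on all arrays, it was 1.75 against 2.52, not called (adjusted p = 0.145). In KO 1420924_at differed by -0.93 (adjusted p = 0.357) and 1450040_at by -0.36 (adjusted p = 0.757), and in WT by 0.16 and 0.05.

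Timp3, the inhibitor that stays bound to the matrix and also blocks ADAM proteases, fell with hormone in S5 on 2 of 4 probe sets. On 1449334_at the arrays read 10.64 and 10.85 in S5 + GH against 11.54 and 11.46 in S5, 1.68-fold lower (-0.75, SE 0.10, adjusted p = 0.00699). On 1419088_at they read 8.11 and 8.31 in S5 + GH against 9.14 and 9.07 in S5, 1.86-fold lower (-0.89, SE 0.15, adjusted p = 0.0176). The other pair differed by -0.34 and -0.29 (1419089_at and 1449335_at, adjusted p = 0.0796 and 0.12), and S5 + GH and S5 did not overlap on any of the 4, as was so for 59.7% of all probe sets. In KO the same 2 probe sets differed by -0.20 and -0.53 (adjusted p = 0.768 and 0.335), and in WT by -0.06 and 0.02.

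The S5 response was not shown to differ from the others. For 1449334_at S5 minus KO was -0.55 (adjusted p = 0.188) and S5 minus WT -0.69 (adjusted p = 0.065). All 4 S5 hormone calls were lost when only the S5 arrays were fitted (adjusted p 0.0729 to 0.161). Of 18 settings each, 4 lost the call of Timp2 1420924_at, 4 that of Timp3 1419088_at and 1 that of Timp3 1449334_at. The 4 were the fit of the S5 arrays alone and leaving out S5 + GH replicate 1 or either S5 array. The Gapdh 3′ minus 5′ difference, a measure of RNA or label length, was 1.62 and 1.55 in S5 + GH, against 1.47 and 1.44 in S5. It was 1.02 and 1.11 in KO + GH against 0.94 and 1.10 in KO, and 0.93 and 0.89 in WT + GH against 1.22 and 1.04 in WT. The same measure for Actb was 3.09 and 3.15 in S5 + GH against 3.04 and 3.06 in S5, and 2.55 to 3.13 on the KO and WT arrays. The part of RNA or label length in the Timp2 and Timp3 differences was not tested.

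Between genotypes Timp3 was lower in S5. Untreated S5 was below KO on 3 of 4 probe sets, by 0.97 on 1419088_at (difference -0.97, SE 0.15, adjusted p = 0.00363), and by less on 1449334_at (-0.39, adjusted p = 0.0312) and 1419089_at (-0.35, adjusted p = 0.035). The last 2 calls were not firm, being lost in 9 of 19 settings for 1449334_at and in 10 of 19 for 1419089_at. Median centring of each array lost both (adjusted p = 0.0611 and 0.0654). So did a limma fit restricted to the untreated S5 and KO arrays (adjusted p = 0.128 and 0.0877). With hormone S5 was below KO on all 4, by 1.5-fold on 1419089_at and 2.52-fold on 1419088_at. KO minus WT was called on none of the 4 without or with hormone.

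**Figure D5:**
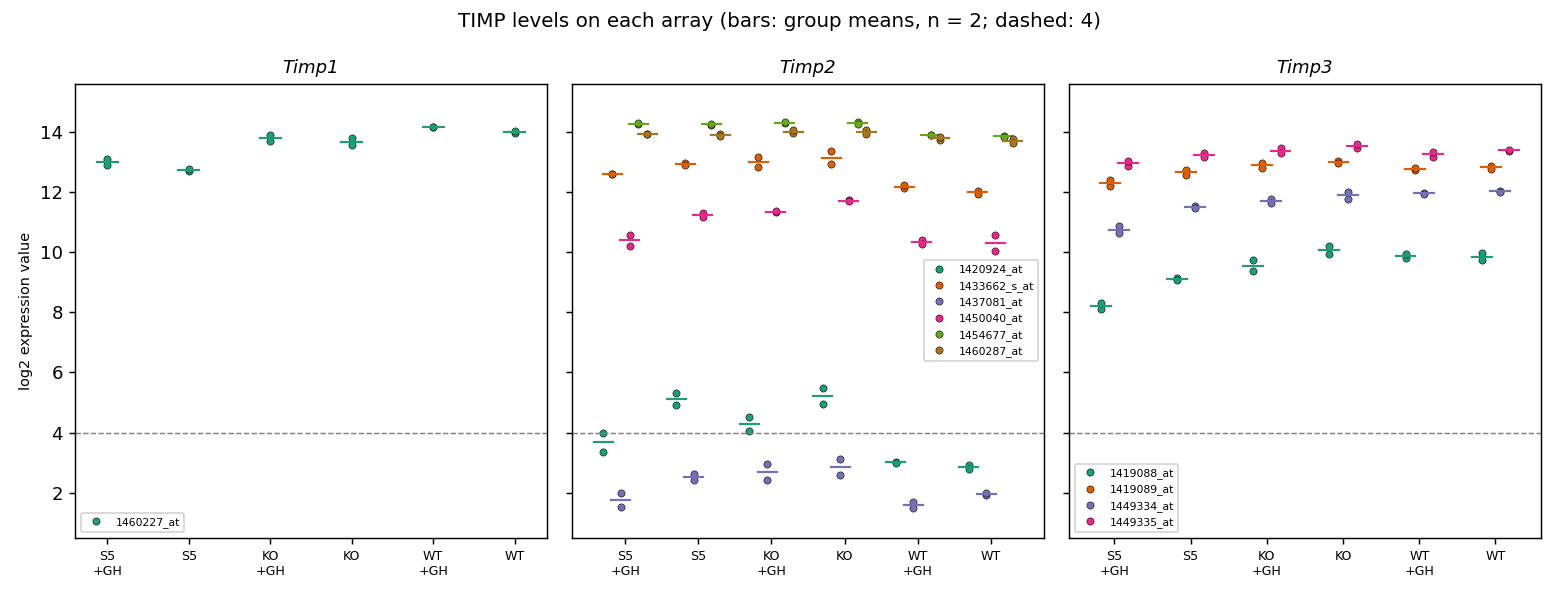
Log2 expression value (y axis) of each TIMP probe set on the 12 arrays; points are arrays, short bars group means (n = 2), the dashed line the low mode bound of 4, and groups on the x axis run S5 + GH, S5, KO + GH, KO, WT + GH, WT. Timp1 is lowest in S5, the Timp2 probe sets are lower in untreated WT than in KO, and the Timp3 probe sets are lowest in S5 + GH.

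The rest of the proteolytic system was read from 3 lists, each gene by its probe set with the highest mean. Of 12 measured other MMPs and Timp4, none was called with hormone in KO or WT. In S5, where 6.24% of all probe sets were called, 1 of the 12 was called. That was Mmp19, a widely expressed soluble MMP, which fell by 0.82 in S5 + GH (difference -0.82, adjusted p = 0.0205). The difference was -0.70 without S5 + GH replicate 1 and -0.82 without either S5 array, and the call was lost in each of these fits. With only the S5 and S5 + GH arrays fitted, the adjusted p of Mmp19 was 0.0922. Untreated KO against WT called 1 higher and 2 lower, 3 of 12 where 17.2% of all probe sets were called. Mmp12 was at least 18.4-fold lower in KO (adjusted p = 0.000628) and Mmp17, a membrane-anchored MMP, at least 7-fold lower (adjusted p = 0.000121). S5 against KO, where 18.8% of all were called, gave 2 higher, Mmp17 by at least 2.26-fold and Mmp16 by 3.10-fold, and 2 lower, including Mmp23 by 13.1-fold (adjusted p = 0.000334).

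Of 14 measured genes of MMP activation and inhibition, none was called with hormone in KO or WT. In S5, where 6.24% of all probe sets were called, 1 of the 14 was called. That was Plat, the tissue plasminogen activator, which fell 1.51-fold (adjusted p = 0.03). Its difference of -0.59 was -0.66 without S5 + GH replicate 1 and -0.53 without S5 + GH replicate 2. The call was lost in both fits, and also without either S5 array. With only the S5 and S5 + GH arrays fitted its adjusted p was 0.0727. Untreated S5 against KO called 1 higher and 3 lower, 4 of 14 where 18.8% of all probe sets were called. Tfpi2, a secreted inhibitor of plasmin and of MMPs, averaged 2.63 in S5 against 12.16 in KO, at least 287-fold lower (adjusted p = 3.1e-07). Pcsk5, a furin-like convertase, was at least 68.6-fold lower (adjusted p = 6.56e-07), its relative Pcsk6 was 5.36-fold higher (adjusted p = 7.86e-06), and Reck, a membrane inhibitor of MMPs, was 1.75-fold lower (adjusted p = 0.00261). Plaur, the urokinase receptor, was 3.62-fold lower in KO than in WT (adjusted p = 0.0103).

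Of 15 measured ADAM and ADAMTS genes, 2 were called in WT with hormone, both lower, where 3.06% of all probe sets were called. Adamts1, a versican-cleaving protease, fell 2-fold (-1.0, adjusted p = 0.00238) and the aggrecanase Adamts5 1.31-fold (-0.38, adjusted p = 0.0197). The Adamts5 difference was -0.35 without WT + GH replicate 2 or WT replicate 1, and -0.42 without WT replicate 2. Its call was lost in each of these fits. In S5, where 6.24% of all were called, 2 of the 15 were called lower and 1 higher. Adamts4 and Adamts9 fell 1.76-fold and 1.59-fold and Adam12 was 1.79-fold higher (adjusted p = 0.0229, 0.015 and 0.0485). The differences of Adamts4 and Adamts9, -0.82 and -0.67, were -0.72 and -0.58 without S5 + GH replicate 1. Without S5 replicate 1 they were -0.79 and -0.70. Both calls were lost in each of these fits, and also without S5 replicate 2. The Adam12 call was lost in 14 settings, among them median centring and the replicate block (adjusted p = 0.0636 and 0.0685), and its difference of 0.84 was 0.53 without S5 replicate 2. With only the arrays of that genotype fitted, none of the hormone calls of the 3 lists passed. None was called in KO. Untreated KO was above WT for 2 of the 15 and below for 5, where 9.38% of all were higher and 7.85% lower. The lower ones included Adam12, 7.66-fold, and Adam8, a myeloid-expressed protease, with a difference of -5.26 (adjusted p = 0.00131; 0.0635 with only those 4 arrays fitted) and 1 KO array in the low mode. S5 stood below WT for Adam12 by 76.4-fold (adjusted p = 1.15e-06).

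For the 4 members with the widest range of group means, the most similar genes were sought among 18502 probe sets by Pearson correlation over the 12 arrays, which share group and genotype. Mmp10 was most like Gbp6 (r = 0.991), an interferon-inducible GTPase, and the chemokine genes Ccl20 (r = 0.991) and Cxcl3 (r = 0.990), which had group means above 9 in WT + GH and below 3 in KO and S5. Mmp9 was closest to Haus6, Lyz1 and Mylk (r = 0.992 each), of which Lyz1 is a lysozyme gene. Mmp13 was closest to Helz2, Pdlim4 and the class I gene H2-K1 (r = 0.988 each). Mmp3 was closest to the mitotic genes Cenpe (r = 0.989) and Dlgap5 (r = 0.988) and to Fmod (r = 0.987), a matrix proteoglycan gene. These correlations are descriptions of 12 arrays in 6 groups.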

How the data were processed

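Total RNA, extracted with TRIzol, was labelled as biotinylated cRNA and hybridised to Affymetrix arrays, per the labels' protocols. The deposited log2 values were made by the authors with GCOS and RMA, per the submitters' processing notes, and settings and versions are not given in the sources used here. Array medians were 2.86 to 3.00, and duplicates correlated at r = 0.989 to 0.995 over 20566 probe sets. The number of arrays limits the precision.

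Of 45101 probe sets, 64 Affymetrix controls were left out. The platform annotation gave 1 gene for 34945 of the others, several for 932 and none for 9160, and symbols were updated through RefSeq (GRCm38.p6). Probe sets were tested singly with limma 3.58.1 (R 4.3.3), as lmFit with a mean for each of 6 groups (6 residual and 1.11 prior degrees of freedom), eBayes and two-sided p-values adjusted by Benjamini-Hochberg over all 45037. The scripts were tested on simulated data. The 9 comparisons were the hormone response in each genotype, the differences between responses, and the untreated genotypes. Comparisons share arrays. The low mode bound of 4 was set after the data were seen. In each list up to 4 genes with the smallest adjusted p per comparison could be named. The genes and lists were chosen with earlier results of these data known. Alternatives were quantile normalization, median centring, a filter at a mean of 4, 1 probe set per gene, a trended prior, the replicate number as a block, only the groups compared, hormone-treated genotype comparisons, and leaving out each array.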

Additional observations from a re-analysis of the deposited data

Results flagged for a closer look

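A total of 4 hormone responses differed between genotypes in a test of the difference itself. The response of Mmp10 in WT exceeded that in KO by 2.51 (adjusted p = 0.00311), and the response in S5 minus that in WT was -2.79 (adjusted p = 0.000998). The S5 and KO arrays of Mmp10 were all in the low mode. The response of Adamts1 was 1.35 higher in S5 than in WT (adjusted p = 0.00369). That of Adamts4, an aggrecanase, was -1.49 for S5 minus WT (adjusted p = 0.0167). The Adamts4 difference had an adjusted p of 0.0509 to 0.0607 without WT replicate 2 or either S5 array.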

How the results depend on the processing

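Of 198 member results (22 probe sets in 9 comparisons), 50 were called, 27 of them under every alternative that kept the probe set. No called result changed sign, and no uncalled one passed in the opposite direction. Fitting only the groups compared, which leaves fewer arrays, lost 15 member calls and gained 3. Called members were then 0 for the WT and S5 hormone responses and 2 for S5 minus WT in response. Over all probe sets the counts were 160 for hormone in WT (1379 in the fit of all groups), 0 in KO (113), 503 in S5 (2812), 139 for WT minus KO (282), 229 for S5 minus KO in response (472), and 4840 for untreated KO minus WT (7760). With 1 probe set per gene, members called were 0 for S5 hormone, 8 for KO minus WT and 9 for S5 minus WT. All calls were then 56 for hormone in KO, 1433 in S5, 205 for S5 minus KO and 532 for S5 minus WT in response (956), and 4936, 4989 and 6307 for untreated KO minus WT, S5 minus KO (8478) and S5 minus WT (10825), since fewer features were tested. A filter at a mean of 4 left 1 member for hormone in WT, and 0 for WT minus KO and S5 minus WT in response, because it removes Mmp10. All calls there were 147 for WT minus KO and 260 for S5 minus KO in response.

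Replicate numbers mark no stated shared batch. Deviations of same-numbered arrays correlated at -0.03 in WT, -0.38 in KO and 0.07 in S5. The replicate block lost 5 member calls and gained none, and left 60 calls for hormone in KO.

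Leaving out single arrays gave 1 to 3 member calls for hormone in WT (all 818 to 1472, lowest without WT + GH replicate 2), 0 to 1 in KO (all 42 to 311, 1 without KO + GH replicate 1) and 1 to 5 in S5 (all 1365 to 3258, lowest without S5 replicate 2). For responses they gave 1 to 2 for WT minus KO (all 189 to 496, highest without WT replicate 2), 0 to 1 for S5 minus KO (all 340 to 1275) and 1 to 2 for S5 minus WT (all 679 to 1658, both highest without S5 + GH replicate 2). Untreated members called were 11 to 14 for KO minus WT, 7 to 9 for S5 minus KO and 15 to 18 for S5 minus WT. On the hormone-treated arrays 4 genotype differences of list genes passed in the direction opposite to the uncalled untreated value, Plat for S5 minus KO at -0.43, and Mmp19 at -0.52, Adamts1 at 1.07 and Adamts4 at -1.33 for S5 minus WT. The cause was not tested. Each group had 2 arrays, and values in the low mode bound a level only from above.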
